A study of Mus musculus with 4 samples.

Results

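The CITED genes encode small nuclear co-regulators, and 3 of them, Cited1, Cited2 and Cited4, were measured in Six2GFP-positive and Six2GFP-negative cells of the mouse embryonic kidney at E15.5. Every non-control probe whose gene name in the scanner files was Cited1, Cited2 or Cited4 was taken, which gave 4 probes of 39429: 1 for Cited1, 2 for Cited2 and 1 for Cited4. All 4 passed the filter on dim probes and were among the 30012 probes tested, which stand for 24150 genes. The kidneys came from hybrids of 129 and C57BL/6 mice that carried a green fluorescent reporter named Six2GFP, and both populations therefore share this genetic background and reporter. Fluorescence-activated sorting gave the Six2GFP-positive cells, taken here as nephron progenitors, and the Six2GFP-negative remainder of the dissected organ. The cell type label reads nephron progenitor for both populations. Tamoxifen stands in each sample's description but in no protocol, and treatment was not assumed. Each population was measured on 2 one-colour arrays. The comparison asks how expression in the progenitors differs from that in the remaining cells of the same organ. The labels do not say how many kidneys, litters or animals were pooled for an array. The p-values therefore measure the spread between these samples, which may be technical.

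CITED proteins do not bind DNA themselves. Their acidic tail holds a conserved region that docks on the histone acetyltransferases p300 and CBP, and they carry these to transcription factors such as the TFAP2 family, or take them away from others. Cited2 competes in this way with the hypoxia-inducible factor HIF-1alpha for p300 and CBP and is itself a hypoxia-induced gene. In the developing mouse kidney, Cited1 is known as a marker of the cap mesenchyme, the condensed progenitors around each ureteric bud tip, and in particular of the progenitors that have not yet been induced to form a nephron.

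The 60-base probes are shown because each value below rests on 1 such sequence, and because 2 of them hold a short run of bases in common. The Cited1 probe lies on the minus strand of mm9 at chrX:99442776-99442835. The first Cited2 probe lies on the plus strand at chr10:17444502-17444561, the second 188 bases further on at chr10:17444690-17444749, and the Cited4 probe on the plus strand at chr4:120340245-120340304. All of the first 2 probes and the first 30 bases of the others are given as the array design has them, from 5′ to 3′. Capitals mark the longest run of bases that any pair of these probes has in common.
Cited1 A_55_P1979833: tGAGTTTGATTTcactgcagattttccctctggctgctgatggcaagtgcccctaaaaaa
Cited2 A_55_P2120577: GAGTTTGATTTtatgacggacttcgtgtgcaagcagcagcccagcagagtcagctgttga
Cited2 A_55_P2116621: gatcctgaaagggttgagaacctggaaaca
Cited4 A_52_P426768: tgaccttccttctcgagcagcctactaacc

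The shared run of 11 bases was held by 2 of the 39429 non-control probes, these of Cited1 and Cited2. Read in codons from the first capital, the Cited1 probe reaches a stop codon that ends at base 40 and the Cited2 probe one that ends at base 60, its last. If that is the reading frame, both sit at the 3′ end of the coding sequence, where the acidic tail is encoded. The frame was not checked against a protein sequence. The other pairs of probes had no run longer than 7 bases in common. Exon and UTR annotation of mm9 was not used here.

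Levels are given as log2 of the processed signal minus the 75th percentile of the array, so a value of 0 is the level that 75% of probes on that array stay below. Levels of different probes are not comparable, because probes differ in how well they hybridise. Differences between groups are Six2GFP-positive minus Six2GFP-negative on this log2 scale, with limma's standard error (SE), and are called when the adjusted p is under 0.05. Six2, the reporter's own gene and a check of the labels, had levels of 5.58 and 5.74 in positive cells and -0.17 and -0.15 in negative cells. That is a difference of 5.82 ± 0.10 (SE), 56.5-fold (adjusted p = 0.000477, n = 2 arrays each). On an array, 72.5% to 79.1% of spots were well above background, none was saturated, and the number of arrays limits the precision.

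The 3 genes took 3 different courses. Cited1 was 27.9-fold higher in Six2GFP-positive cells, Cited4 was 11.8-fold lower, and Cited2 was higher by 1.38-fold and 1.53-fold on its 2 probes, of which the second passed the test. So 3 of the 4 probes were called, 2 of them higher and 1 lower. Across the array 39.3% of the probes tested were called, 21.1% higher and 18.2% lower in positive cells. The groups did not overlap on any of the 4 Cited probes, and they did not overlap on 75.1% of all probes tested.

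**Figure D1:**
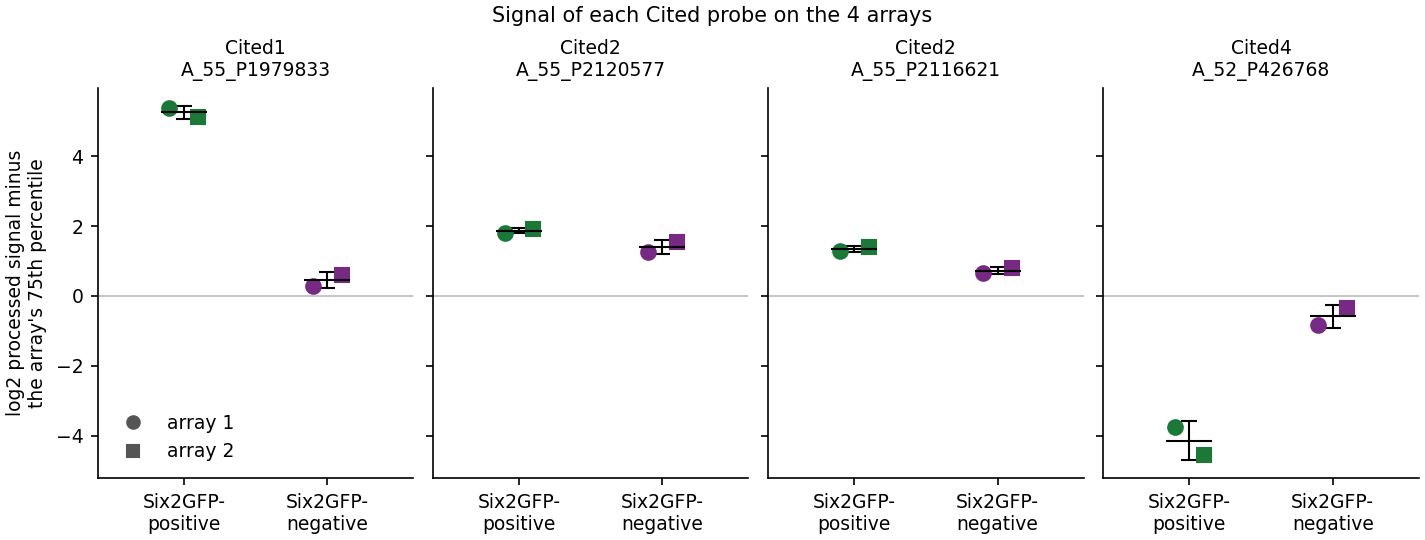
Level of each Cited probe on each array (log2 processed signal minus the array's 75th percentile), Six2GFP-positive arrays left and Six2GFP-negative arrays right; circles are array 1, squares array 2, and bars the mean with its SD (n = 2). Cited1 sits above 5 in positive cells and under 1 in negative cells, Cited4 the other way round at -3.75 and -4.54 against -0.82 and -0.35, and both Cited2 probes show a small step.

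Cited1, the family member that marks uninduced cap mesenchyme, had levels of 5.38 and 5.12 in positive cells, against 0.29 and 0.61 in negative cells. Both positive arrays were high and lay at least 4.51 above either negative array. The positive mean was 5.25 ± 0.19 and the negative mean 0.45 ± 0.23 (SD, n = 2 each). The difference of 4.80 ± 0.17 had a 95% interval of 4.34 to 5.27, or 20.2-fold to 38.6-fold (adjusted p = 0.000534). Of the 30012 probes tested, 30 had a larger difference, or 0.1%. The processed signals behind these levels were 59610 and 48960 in positive cells and 1955 and 2414 in negative cells, with none saturated. Cited1 was thus also measured well above background in negative cells. Which negative cells carry that signal cannot be told from bulk samples, and in these a smaller number of cells of a type and less RNA per cell cannot be told apart.

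Cited2, the HIF competitor, was measured by 2 probes of 1 transcript. Its first probe, A_55_P2120577, had levels of 1.81 and 1.92 in positive cells and 1.25 and 1.55 in negative cells. The lowest positive array was above the highest negative array by 0.26, a little less than the 0.30 between the negative arrays. The difference of 0.47 ± 0.14 (95% interval 0.08 to 0.85, or 1.06-fold to 1.81-fold) missed the threshold (adjusted p = 0.0642). This call depended on the settings: among others, the same probe passed when arrays were centred on their median (0.72, adjusted p = 0.0205), with normexp background correction (0.44, adjusted p = 0.0356) and with an intensity-dependent variance (0.47, adjusted p = 0.0225).

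The second Cited2 probe, A_55_P2116621, had levels of 1.28 and 1.40 in positive cells and 0.65 and 0.80 in negative cells. Here the gap between the groups, 0.49, was larger than the gap within either group. The difference was 0.62 ± 0.10 (95% interval 0.33 to 0.91, or 1.25-fold to 1.87-fold; adjusted p = 0.0183). The call was lost with any of the arrays left out: the difference was 0.67 and 0.56 without positive array 1 or 2 (adjusted p = 0.0626 and 0.0902), and 0.54 and 0.69 without negative array 1 or 2 (adjusted p = 0.0685 and 0.0527). The difference between the groups was smaller by 0.15 on the first probe than on the second, and the within-group SD of the first probe's value minus the second's was 0.07. The median of all 30012 probes was itself 0.15 higher in positive cells on this scale. Relative to that median, Cited2 was 0.32 and 0.47 higher. Cited2 signal was present in both populations, at processed signals of 3480 to 5350 in positive cells and 2519 to 4640 in negative cells over the 2 probes.

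Cited4, a co-activator of TFAP2 factors in mammalian cells, ran opposite to Cited1. Its levels were -3.75 and -4.54 in positive cells, against -0.82 and -0.35 in negative cells. Both positive arrays were low, and they differed from each other by 0.79, more than the 0.47 between the negative arrays. The means were -4.15 ± 0.56 and -0.58 ± 0.33 (SD, n = 2 each). The difference of -3.56 ± 0.33 had a 95% interval of -4.49 to -2.64 (adjusted p = 0.00404), which left 8.45% of the negative level in positive cells. A lower difference was found for 759 probes, 2.53% of those tested. Processed signals were 106 and 60.44 in positive cells and 910.3 and 1245 in negative cells, and all 4 were called well above background by the scanner software. The difference was -2.78 with normexp in place of the scanner software's background subtraction, and -3.17 without positive array 2.

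**Figure D2:**
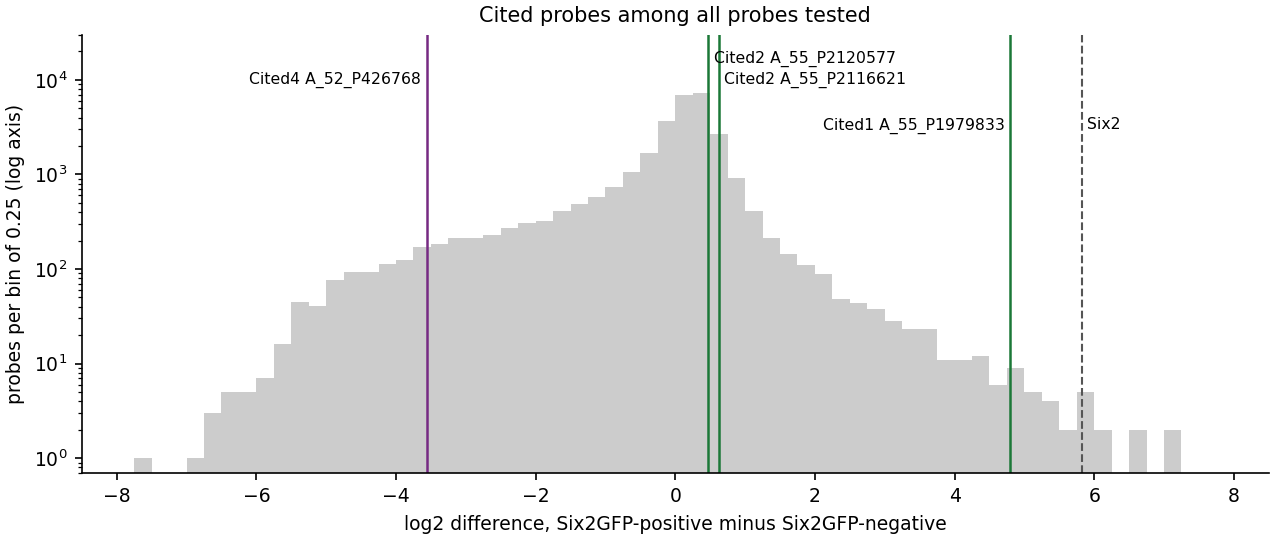
Number of probes (log axis) by their log2 difference, Six2GFP-positive minus Six2GFP-negative, for the 30012 probes tested, with lines at the Cited probes and at Six2. Cited1 at 4.80 lies in the sparse right tail near Six2, the Cited2 probes at 0.47 and 0.62 lie beside the peak, and Cited4 at -3.56 lies in the broader left tail.

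Many markers of other cell types were, like Cited4, lower in positive cells. Of 12 ureteric bud markers tested, 11 were lower in positive cells and none higher, against 18.4% lower and 20.8% higher among all 24150 genes, and the median difference was -3.69. Their summed level, relative to the 75th percentile on a linear scale, was 8.10 and 7.18 in positive cells and 35.9 and 44.9 in negative cells. Bright probes weigh most in such a sum. In positive cells this was Hoxb7 (2.26 and 2.20), which was not called. The sums here and below therefore do not measure the amount of a cell type. All 12 bud markers were well above background in positive cells. Cited4 was higher on positive array 1 than on array 2, and so were 10 of the 12 bud markers, by a median of 0.32 over the list, against 0.01 over all genes. All 10 macrophage markers had that order too, with a median gap of 0.51, and summed to 9.06 and 6.32 in positive cells and 12.1 and 10.6 in negative cells, with 3 of 10 called lower. Of the erythroid markers 0 of 7 had that order (median gap -0.28), of the endothelial ones 5 of 10 (0.03), of the stromal ones 8 of 12 (0.12) and of the podocyte and tubule ones 7 of 9 (0.12).

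Stromal markers summed to 20.7 and 17.6 in positive cells and 185 and 172 in negative cells (11 of 12 lower, median -4.39). Endothelial markers summed to 10.3 and 10 in positive cells and 40.6 and 39.8 in negative cells (9 of 10 lower, median -5.20). The brightest of them in positive cells, Kdr (2.61 and 2.52), was not called on this probe (difference 0.07). Another Kdr probe gave -5.29. Podocyte and tubule markers summed to 1.89 and 1.43 in positive cells and 7.64 and 6.44 in negative cells (6 of 9 lower, median -2.25). Erythroid markers summed to 11 and 15.7 in positive cells and 302 and 285 in negative cells (5 of 7 lower, median -4.55). Most of the negative sum was Hba-a1 (8.15 and 8.06). No member of these 6 lists was called higher. On the positive arrays, Tbx18 of the stromal list did not stand well above background. The part of these cell types in the Cited values was not tested.

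The genes for proteins that CITED members are known to bind were divided. Of 17 tested of 18 listed, 7 were higher and 6 lower in positive cells, against 20.8% higher and 18.4% lower among all genes. The median difference was 0.18, against 0.15 over all genes. With an array left out, the list median lay between 0.12 and 0.18. The acetyltransferase genes themselves differed little. Crebbp, which encodes CBP, had levels of 2.30 and 2.38 in positive cells and 2.51 and 2.32 in negative cells (difference -0.08 ± 0.11, adjusted p = 0.608). Its groups overlapped, and the sign turned when arrays were centred on their median (0.18). Ep300, which encodes p300, had levels of -0.52 and -0.44 in positive cells and -0.82 and -0.83 in negative cells. This small difference of 0.34 ± 0.09 passed the threshold (adjusted p = 0.0439), but not with any array left out (0.30 to 0.38, adjusted p = 0.116 to 0.198), nor with dim probes kept in the fit (adjusted p = 0.0883).

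The TFAP2 genes encode transcription factors that Cited2 and Cited4 are known to co-activate. Tfap2a and Tfap2b were lower in positive cells, as Cited4 was. Tfap2b, which the distal nephron needs to form, had levels of -3.42 and -4.23 in positive cells and 0.42 and 0.36 in negative cells (difference -4.21 ± 0.30, adjusted p = 0.00206). Tfap2a had levels of -4.72 and -5.43 in positive cells and -0.28 and -0.37 in negative cells (difference -4.75 ± 0.27, adjusted p = 0.00118). Positive array 1 was above array 2 by 0.81 for Tfap2b and 0.71 for Tfap2a, beside 0.79 for Cited4, while the negative arrays of both TFAP2 genes lay 0.06 and 0.09 apart. Tfap2c gave only a bound: no positive array measured it well above background, and it was at least 8.0-fold lower. It passed the filter on dim probes through the negative arrays only. Its adjusted p of 0.000477 belongs to the fitted difference, which takes in positive signals not well above background. In such a bound the dim arrays enter at the lowest signal counted as well above background, or at the probe's own signal where that is higher. It holds for the scanner software's processed signal only. With normexp background correction the differences were -1.01 for Tfap2c, -3.52 for Tfap2b and -3.51 for Tfap2a, all called.

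Other binding partners split. Myc, a growth-promoting transcription factor, had levels of 2.16 and 2.33 in positive cells and 0.30 and 0.54 in negative cells (difference 1.83 ± 0.13, adjusted p = 0.00207). Wt1, needed for kidney progenitors and podocytes, had levels of 5.38 and 5.37 in positive cells and 4.22 and 4.23 in negative cells (difference 1.15 ± 0.08, adjusted p = 0.00206). Both rose with no overlap between groups. Hnf4a, a regulator of the proximal tubule, fell, with levels of -1.13 and -1.22 in positive cells and 3.25 and 3.59 in negative cells (difference -4.59 ± 0.15, adjusted p = 0.000521).

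The probes of Esr1 disagreed, and those of Smad4 had the same direction but differed in size. Esr1, the oestrogen receptor that Cited1 can co-activate, was counted as higher by its brightest probe (difference 5.19 ± 0.46, adjusted p = 0.00347). Another Esr1 probe ran the other way and stood well above background on the negative arrays only. Its levels were -9.25 and -8.91 in positive cells and -4.89 and -4.96 in negative cells. The brightest Esr1 probe had levels of -6.23 and -4.95 in negative cells, and its difference was 3.73 with normexp. Smad4, the common partner of SMAD signalling, had levels of 3.15 and 3.20 in positive cells and 2.73 and 2.84 in negative cells on its brightest probe (difference 0.39 ± 0.09, adjusted p = 0.0382). Its other probe gave 1.59 ± 0.08 (adjusted p = 0.00103). The call on the brightest probe was lost, among other settings, with quantile normalization (0.22, adjusted p = 0.101) and with any array left out (0.33 to 0.44, adjusted p = 0.0820 to 0.165).

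**Figure D3:**
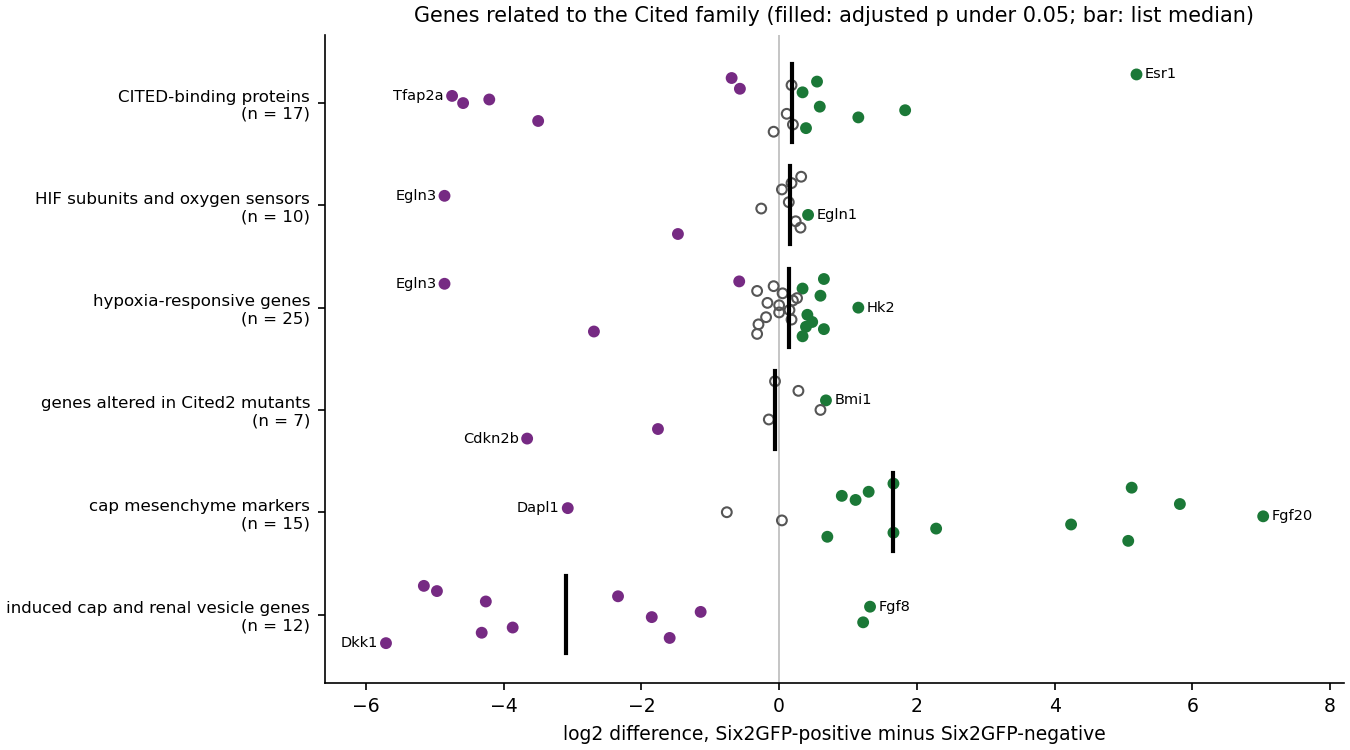
Log2 difference, Six2GFP-positive minus Six2GFP-negative, of the tested members of 6 gene lists around the Cited family, each gene by its brightest probe; filled points are called (green higher, purple lower), open points are not, and the bar is the list median; members below background in positive cells are drawn at their fitted difference. The 4 upper lists have medians from -0.06 to 0.18, against 0.15 over all genes. CITED-binding proteins were split, with 7 of 17 higher and 6 lower, against 20.8% and 18.4% of all genes. Cap mesenchyme markers have a median of 1.66 and induced genes one of -3.10.

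Because Cited2 restrains HIF-dependent transcription, the oxygen-sensing genes were read next. Of 10 genes for HIF subunits and their sensors, 1 was higher and 2 were lower, with a median of 0.16, against 20.8% higher and 18.4% lower among all genes. With arrays centred on their median, 5 were higher and 2 lower. Under that setting, 13562 of all 30012 probes were higher and 4654 lower. Hif1a, whose product competes with CITED2 for p300 and CBP, had levels of 0.80 and 0.87 in positive cells and 0.50 and 0.56 in negative cells. This difference of 0.31 ± 0.09 missed the threshold (adjusted p = 0.0582) and passed under 4 of the other settings tried. Egln3, a prolyl hydroxylase that marks HIF for destruction and is itself a HIF target, fell, with levels of -5.90 and -6.06 in positive cells and -1.10 and -1.13 in negative cells (difference -4.86 ± 0.10, adjusted p = 0.000477). Hif3a, a HIF subunit that can act as an inhibitor, had levels of -0.15 and -0.16 in positive cells and 1.34 and 1.29 in negative cells on its brightest probe (difference -1.47 ± 0.08, adjusted p = 0.00120). Another Hif3a probe gave -1.50 ± 0.22 (adjusted p = 0.0127). On a further Hif3a probe the groups overlapped (-0.21 ± 0.57, adjusted p = 0.793). With normexp the difference of Egln3 was -3.08.

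Egln1, the main prolyl hydroxylase, was higher by 0.42 ± 0.10 (adjusted p = 0.0431), a call that was lost with any array left out (0.34 to 0.50, adjusted p = 0.0729 to 0.171) and with dim probes kept in the fit (adjusted p = 0.0839). The 3 probes of Epas1, the HIF subunit prominent in endothelium, disagreed. The brightest had levels of 1.35 and 1.38 in positive cells and 1.24 and 1.02 in negative cells (difference 0.24 ± 0.11, adjusted p = 0.174). The probe furthest 3′ had levels of -2.26 and -2.28 in positive cells and 2.14 and 2.09 in negative cells (difference -4.38 ± 0.08, adjusted p = 0.000477), and the third stood well above background on the negative arrays only.

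Hypoxia-responsive genes were mostly near the array-wide median. Of 25 tested of 27 listed, 9 were higher, 3 lower and 13 not called, with a median of 0.15, against 20.8% higher and 18.4% lower among all genes. The list median lay between 0.07 and 0.17 with 1 array left out. With dim probes kept in the fit, 3 members were higher, beside 3391 of all 39395 probes. Hk2, a hexokinase, had levels of 0.98 and 1.40 in positive cells and 0.06 and 0.02 in negative cells (difference 1.15 ± 0.17, adjusted p = 0.0131). The hexokinase call was lost without negative array 1 or 2 (1.17 and 1.13, adjusted p = 0.0620 and 0.0686). Bnip3l, a mitophagy receptor, and Pdk1, a kinase that restrains pyruvate oxidation in mitochondria, were higher by 0.65 ± 0.09 and 0.65 ± 0.14 (adjusted p = 0.0116 and 0.0312). Neither passed without positive array 1 (0.66 and 0.62, adjusted p = 0.0610 and 0.116) or positive array 2 (0.65 and 0.68, adjusted p = 0.0642 and 0.104). Bnip3l also lost its call without negative array 1 (0.59, adjusted p = 0.0511), and Pdk1 without negative array 2 (0.49, adjusted p = 0.0729). Adm, a vasodilator peptide, had levels of -4.97 and -5.36 in positive cells and -2.47 and -2.48 in negative cells (difference -2.69 ± 0.16, adjusted p = 0.00135; -1.50 with normexp). P4ha2, a collagen prolyl hydroxylase, was lower by 0.58 on the log2 scale (difference -0.58 ± 0.15, adjusted p = 0.0477), and not called with any array left out (-0.71 to -0.45, adjusted p = 0.0775 to 0.159). Egln3, above, is also in this list.

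Genes known to change in mice or cells that lack Cited2 were few. Of 7 tested of 8 listed, 1 was higher and 2 were lower, against 20.8% higher and 18.4% lower among all genes. With an array left out, the list median lay between -0.12 and 0.08. Bmi1, a Polycomb gene that depends on Cited2 in mouse fibroblasts, had levels of 2.43 and 2.44 in positive cells and 1.63 and 1.88 in negative cells (difference 0.68 ± 0.12, adjusted p = 0.0199). Its second probe gave the same direction (1.85-fold, adjusted p = 0.00418). The call on the brightest probe was lost without positive array 1 or 2 (0.69 and 0.67, adjusted p = 0.0806 and 0.0864) and without negative array 1 (0.56, adjusted p = 0.0560). Cdkn2b, a cell cycle inhibitor that Polycomb represses, stood well above background on the negative arrays only and was at least 5.69-fold lower. Its adjusted p of 0.0137 belongs to the fitted difference, which takes in positive signals not well above background. With normexp the difference of Cdkn2b was -0.84, below the size of that bound, and it was -4.42 and -2.90 without positive array 1 or 2. Its call was lost with either negative array left out (adjusted p = 0.0693 without array 1 and 0.0666 without array 2). The list median of -0.06 changed sign in 5 of 14 other settings.

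The cap mesenchyme and induced lists were read beside the Cited values. Of 15 cap mesenchyme markers, 12 were higher and 1 was lower, against 20.8% higher and 18.4% lower among all genes. The list median was 1.66. The members that were higher include Six2, whose reporter was used for the sort. Fgf20, a growth factor of the progenitors, had levels of -0.21 and -0.24 in positive cells and -7.63 and -6.88 in negative cells (difference 7.03 ± 0.28, adjusted p = 0.000613), and was well above background on 1 of the 2 negative arrays. With normexp its difference was 4.29. Osr1, a zinc finger gene of early kidney progenitors, had levels of 2.20 and 2.43 in positive cells and -2.77 and -2.83 in negative cells (difference 5.12 ± 0.12, adjusted p = 0.000477). Among these markers the difference of Cited1, 4.80, lay between those of Crym (5.07 ± 0.15, adjusted p = 0.000484) and Meox1 (4.24 ± 0.12, adjusted p = 0.000477). Meox1 was added here after its value was seen. The member that fell was Dapl1, with levels of -5.29 and -5.27 in positive cells and -2.24 and -2.18 in negative cells (difference -3.07 ± 0.08, adjusted p = 0.000477; -1.78 with normexp).

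Of 12 genes that switch on when progenitors are induced to form the renal vesicle, 10 were lower and 2 higher, with a median of -3.10. Among all genes, 18.4% were lower and 20.8% higher. Dkk1, a Wnt antagonist, and Hes5, a Notch target, lay at -5.71 ± 0.28 and -5.16 ± 0.31 (adjusted p = 0.000900 and 0.00140). With normexp the difference of Dkk1 was -4.75. Lhx1, a transcription factor of the renal vesicle, gave -4.97 ± 0.15 (adjusted p = 0.000483). Fgf8, a growth factor needed for nephron formation, and Pla2g7, a phospholipase, were the members that rose, by 1.32 ± 0.11 and 1.22 ± 0.09 (adjusted p = 0.00293 and 0.00211). Cited4 thus had a difference of the same sign as most induced genes, and Cited1 one of the same sign as most cap mesenchyme markers. The sign of Cited4 was not particular to induced genes. Most ureteric bud, stromal, endothelial, erythroid, and podocyte and tubule markers above were called lower too, and 3 of 10 macrophage markers were.

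**Figure D4:**
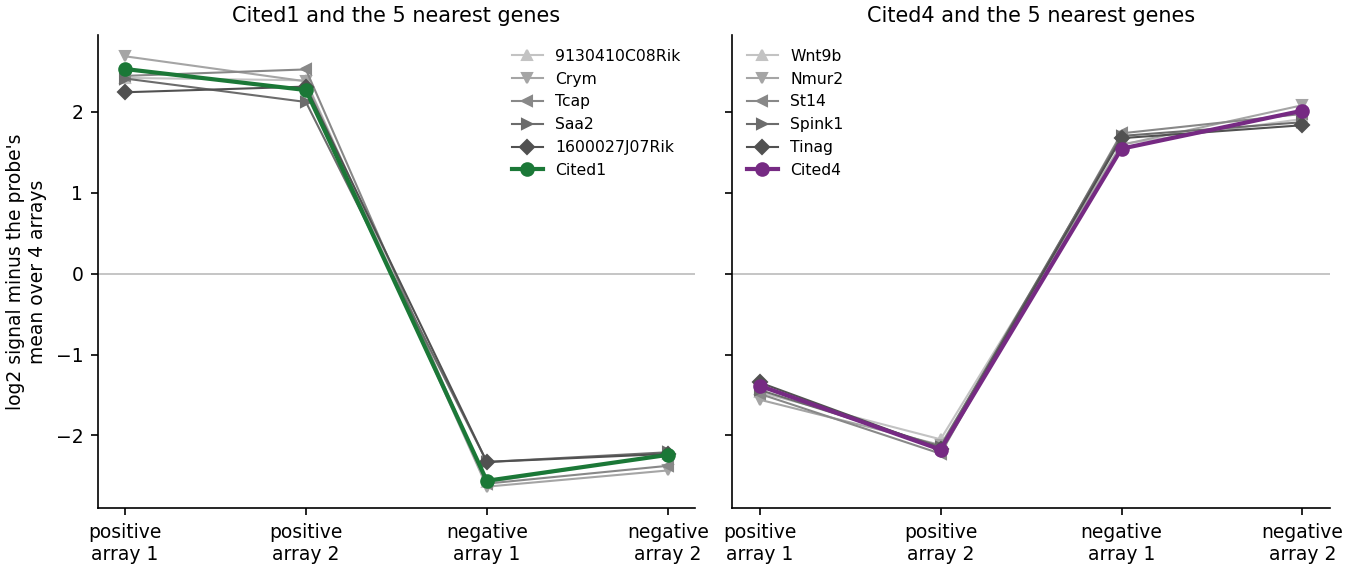
Level on each array minus the probe's own mean over 4 arrays (log2) for Cited1 and Cited4, coloured, and the 5 genes nearest to each, grey, with positive arrays left and negative arrays right. The grey lines lie close to the coloured one because the genes were chosen for that, at distances of 0.16 to 0.38 for Cited1 and 0.19 to 0.22 for Cited4.

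The genes most like each Cited probe were found by the Euclidean distance between centred levels over the 4 arrays, among 22280 brightest probes well above background on all 4. Nearest to Cited1 was 9130410C08Rik (distance 0.16), followed by Crym, a thyroid hormone binding protein gene expressed in the cap mesenchyme (0.28), Tcap, a sarcomere gene (0.30), Saa2, an acute-phase gene (0.30), and 1600027J07Rik (0.38). Their differences were 4.54 to 5.07, and with normexp those of 9130410C08Rik, Saa2 and Tcap were 3.76, 3.78 and 3.94. Nearest to Cited4 were Wnt9b, the ureteric bud signal that induces nephrons (0.19), Nmur2, a neuropeptide receptor gene (0.20), St14, an epithelial protease gene (0.22), Spink1, a protease inhibitor gene (0.22), and Tinag, a basement membrane gene of the tubule (0.22). Their differences were -3.71 to -3.51. Likeness in size and in the order of the arrays follows from how these genes were chosen. With normexp Wnt9b was at -2.29, Nmur2 at -2.09, St14 at -2.90 and Tinag at -2.60.

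Around the Cited2 probes the nearest genes were closer. The 5 nearest to A_55_P2120577 were an unnamed probe, A_55_P2060255, then Ppid, Adat1, Gcgr and Fem1a, at distances of 0.029 to 0.032. Among those nearest to A_55_P2116621 were LOC100046995, Ift80, Zfp799 and Mepce, at 0.017 to 0.028. The 2 sets of nearest genes had 0 genes in common.

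The genes beside the Cited genes on mm9 were also read. Within 250 kb of Cited1 on chromosome X, 11 of 12 genes were tested, with 4 higher and 1 lower, against 20.8% and 18.4% among all genes. The nearest named ones were Rps4x, a ribosomal protein gene (0.47 ± 0.09, adjusted p = 0.0243; 0.08 with quantile normalization, adjusted p = 0.481), the unnamed probe A_55_P2045086 (0.65 ± 0.09, adjusted p = 0.0115), Hdac8, a histone deacetylase gene (-0.47 ± 0.09, adjusted p = 0.0266; -0.22 with array medians, adjusted p = 0.159), and LOC434825 (-0.21 ± 0.46, adjusted p = 0.743). Without 1 array at a time, the adjusted p was 0.0704 to 0.122 for Rps4x, 0.0419 to 0.0647 for A_55_P2045086 and 0.0686 to 0.127 for Hdac8. LOC434825 lay at -0.84 (adjusted p = 0.0453) without negative array 2 and at 0.43 without negative array 1.

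Near Cited2 on chromosome 10, all 4 genes were tested and 1 was called, the unnamed probe A_55_P2166799 at 1.05 ± 0.12 (adjusted p = 0.00760; 0.44 with normexp), with Txlnb next to it at 0.43 ± 0.14 (adjusted p = 0.0733). Near Cited4 on chromosome 4, 9 of 10 genes were tested, with 1 higher and 1 lower. Beside the counts for Cited2 and Cited4, 20.8% of all genes were higher and 18.4% lower. Ctps, a nucleotide synthesis gene, was at 0.39 ± 0.08 (adjusted p = 0.0300; 0.23 and adjusted p = 0.0813 with quantile normalization). With 1 array left out its adjusted p was 0.0862 to 0.139. Nfyc and Gm8439 were not called (0.04 ± 0.10 and 1.01 ± 1.45), and the levels of Gm8439 on the positive arrays were -6.97 and -2.88. The difference of Gm8439 was 3.06 (adjusted p = 0.00231) without positive array 1 and -1.04 (adjusted p = 0.0206) without positive array 2.

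**Figure D5:**
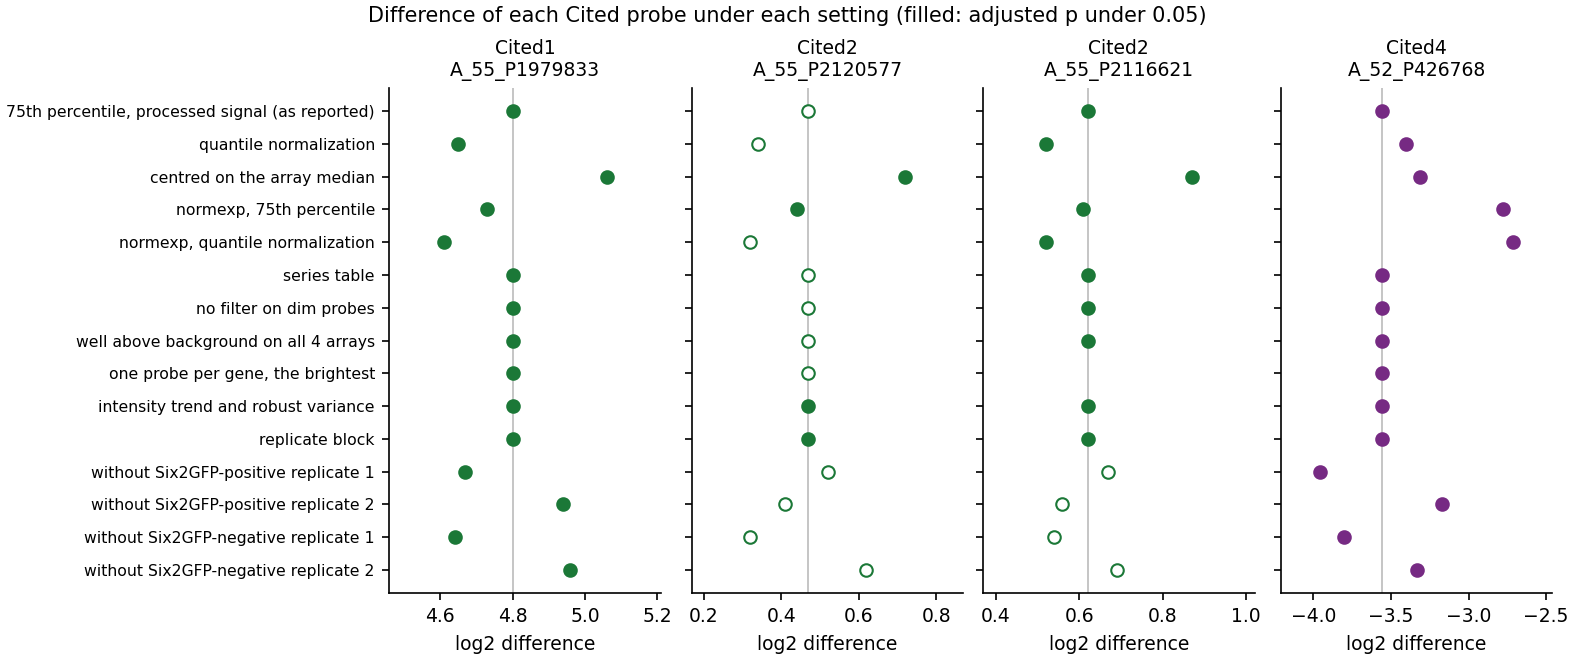
Log2 difference, Six2GFP-positive minus Six2GFP-negative, of each Cited probe under the reported setting (top) and each other setting tried; filled points have an adjusted p under 0.05, and the axes differ between panels. Cited1 stays between 4.61 and 5.06 and Cited4 between -3.96 and -2.71, filled throughout, while the Cited2 probes move between filled and open.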

How the data were processed

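The 4 samples were RNA from sorted cells, each labelled with Cy3 and measured on 1 one-colour Agilent array, per the labels. Per the labels' protocols, kidneys were dissected, cells were sorted by GFP, and RNA was prepared with Trizol. Groups were taken from the titles: tamoxifen stands in each sample's description but in no protocol, and the cell type label is nephron progenitor for negative cells too. Tamoxifen treatment was not assumed.

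The authors quantified the scans with Agilent Feature Extraction 10.7.3.1, per the file headers, and probe positions refer to mm9. Each deposited scanner file gives a linear processed intensity for every spot, background-subtracted and detrended within the array but not normalized between arrays. Their deposited p-value column, for a spot against its background, is used only to describe spots. The deposited series-wide table repeats that processed intensity: on each array 99.8% of probes lay within 0.01 log2 of the scanner value, and its column medians were 114 and 110 on positive arrays and 158 and 144 on negative arrays. It is thus linear, uncentred and not a ratio.

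Outlier spots, 108 to 174 an array, were left out and spots of a probe averaged. The 75th percentile over non-control probes was 1430 and 1410 on positive arrays and 1604 and 1587 on negative arrays. A probe was kept where both arrays of either group measured it well above background, 30012 of 39395 complete probes. RefSeq accessions gave names to 26055 probes, 3195 already had a current symbol, and 10179 kept the file's name. The limma package, version 3.58.1 (R 4.3.3), fitted all 30012 probes at once with lmFit and eBayes, after a test on simulated data. Tests were two-sided, with Benjamini-Hochberg adjustment over these probes. Lists were counted over 24150 genes by the brightest kept probe, without a set test. Isl1, Mxi1, Epo and Cdkn2a had no probe kept, and the name Hbb-b1 was not found.

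The members and lists were chosen with earlier results of these data known. Genes named are the Cited probes, Six2, the 3 largest called differences in each direction of each of the first 6 lists, a short set of CITED partners, the 5 nearest genes, and the nearest 2 genes on each side within 250 kb; some genes that this rule takes are not reported here. Replicate numbers did not pair the samples by any label. All arrays were on 1 slide with 1 recorded scan time, so no batch could be fitted. Alternatives were 2 other scalings, normexp with an offset of 50, the series table, 2 other filters, 1 probe per gene, a variance model with intensity trend and robust estimation, a block for the replicate number, and each array left out in turn.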

Additional observations from a re-analysis of the deposited data

How the results depend on the processing

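The differences of Cited1 (4.61 to 5.06) and Cited4 (-3.96 to -2.71) kept direction and call in all 14 alternatives. Cited2 stayed higher throughout, from 0.32 to 0.72 on A_55_P2120577 and from 0.52 to 0.87 on A_55_P2116621, but its calls moved. A_55_P2120577 passed with array medians (0.72), normexp (0.44), an intensity trend (0.47) and the replicate block (0.47, adjusted p = 0.0474). A_55_P2116621 lost its call with 1 array left out (0.54 to 0.69) and has no value with 1 probe per gene. The labels do not say whether same-numbered arrays came from the same kidneys. Deviations of same-numbered arrays correlated at 0.22 over probes with 2 pairs, which cannot decide this. The replicate block gave 11103 calls, against 11806 without it. The block also ended the calls of Ep300 (0.34, adjusted p = 0.0638) and Smad4 (0.39, adjusted p = 0.0505). With an array left out, the lone array of a group is assumed to vary like the other group.

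Of all calls, 53.7% were higher in positive cells. That share was 74.5% with array medians (13562 higher of 18216 called; median difference of all probes 0.41), 63.6% with normexp, 60.1% with quantile normalization, 60.9% with both, and 41.7% with no filter (3391 higher). With 1 array left out, 5890 to 6542 probes were called and 1826 to 2682 were higher, 30% to 41%. Calls then numbered 7 to 8 among CITED-binding proteins, 3 among hypoxia-responsive genes and 0 to 2 among genes altered in Cited2 mutants, fewer arrays being fitted. Hypoxia-responsive calls were 5 with no filter. HIF and sensor calls were 7 with array medians, 5 with normexp and 5 with an intensity trend. Cited2 mutant calls were 5 with quantile normalization, 5 with array medians and 1 with a filter on all 4 arrays. That list's median of -0.06 became 0.20 with quantile normalization, 0.19 with array medians, 0.12 with normexp and quantiles, 0.28 with the filter on all 4 arrays and 0.08 without positive array 2. Crebbp turned to 0.18 with array medians, and lay between -0.17 and 0.02 with 1 array left out, the upper value without negative array 1. Among neighbours, Nfyc turned to -0.12 with quantile normalization, -0.13 with normexp and quantiles and -0.03 without negative array 1 (up to 0.11 without another array). LOC434825 turned to 0.05 with quantile normalization, 0.05 with array medians, 0.03 with normexp and quantiles and 0.43 without negative array 1 (-0.84 without negative array 2). Gm8439 turned to -1.04 without positive array 2 (3.06 without positive array 1). The cause was not tested. Where signal over background is low, as for Cited4 in positive cells, the size of a difference depends on the background correction (-2.78 with normexp).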
